A study of Zea mays with 56 samples.

Results

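Large insertion sectors in maize endosperm are the subject here: sites where a Mu transposon insertion was carried by a sizeable share of the DNA of a kernel's endosperm and was rarer or not read in every leaf, every root and the deeper pollen libraries. The rule took 493 of the 2253850 insertion sites in the deposited table. A site had to have 0 counts in the 4 Mu-inactive leaf libraries, at least 10 counts and a relative abundance of at least 0.01 in any of 17 endosperm libraries, and under 0.01 in every undiluted leaf and root library and in the 9 pollen libraries with a reference level of 1000 or more. Each count was divided by the library's reference level to give a relative abundance. That level is the median of the library's counts at 28 sites, those that reached 10 counts in all 50 undiluted libraries. The members were thus chosen by their relative abundance in endosperm and their level under 0.01 elsewhere, and both are given as description.

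Mu elements are DNA transposons that move when an autonomous element of the family, MuDR, supplies the transposase, and each insertion duplicates a short stretch of the target. The endosperm and the embryo of a kernel come from separate fertilisations: 1 sperm joins the egg and its sister joins a pair of polar nuclei. An insertion made during endosperm growth is passed to the descendants of that cell and forms a sector there, whose share of the tissue is larger the earlier the insertion occurred. Endosperm DNA is not passed on to the plant that grows from the kernel.

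Mu-active kernels came from a Mu-active father and a Mu-inactive mother, both W22 inbred maize. A chip was cut from each kernel, and the kernel was then planted. The plant gave leaf at the V2 seedling stage, primary root, or pollen at maturity, so leaf, root and pollen carry the embryo's genome. The groups were endosperm of 17 plants, leaf of 6 plants in 8 libraries, root of 6 plants, pollen of 14 plants in 15 libraries, 6 dilutions of 2 of the leaves with Mu-inactive leaf, and leaf of 3 Mu-inactive plants of the maternal parent in 4 libraries. The plants numbered 42 and 52 came from a second family. Endosperms 61 and 74 are labelled W22 MuActive and B73 MuKiller, MuKiller being a derivative of MuDR that silences it, while 15 endosperms are labelled W22 MuActive alone. Each endosperm is 1 chip of 1 kernel, so the values describe the piece cut and not the whole endosperm. The sources disagree on 3 libraries: the title of the repeat library of leaf 75 names plant 76, the title of pollen 99 names plant 85, and the description of pollen 69 names the second family.

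The reference level lay between 767.5 and 29232 counts for endosperm libraries, 8618 and 23714 for leaf, 8704 and 35519 for root, and 1478.5 and 7022 for the 9 deeper pollen libraries. Endosperm 105 was the shallow one at 767.5, and there 10 counts already stand for 0.0130. The other 16 endosperms had at least 5063.5.

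Before the sectors are described, a feature of the libraries has to be given, because sets of sector sites recurred in particular groups of endosperms. Of the 493 sites, 397 had at least 10 counts in 1 endosperm, 50 had them in 2 endosperms and 46 in 3 or more. The 96 sites in 2 or more made up 19.5% of the sectors, while 5.36% of all 40598 endosperm sites with at least 10 counts under the same bounds were shared in this way. The rule used endosperm levels, so this contrast is a description.

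The same endosperms recurred together. A set of 12 sites had at least 10 counts in endosperms 75 and 78 and in no other, with a median relative abundance of 0.0119 in endosperm 75 and 0.00638 in endosperm 78. Another 7 sites were shared by endosperms 61, 74 and 83, with medians of 0.0162, 0.00623 and 0.00921 in that order. A group of 7 other sites was shared by endosperms 63, 69, 79, 85 and 99, at medians of 0.0115, 0.0139, 0.00419, 0.0328 and 0.00708. A further 4 sites were shared by the 8 endosperms 61, 63, 69, 74, 79, 83, 85 and 99 and had 0 counts in every leaf, root and pollen library and in the other 9 endosperms. Their medians were highest in endosperm 85, at 0.0425, and lowest in endosperm 79, at 0.00415.

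**Figure D1:**
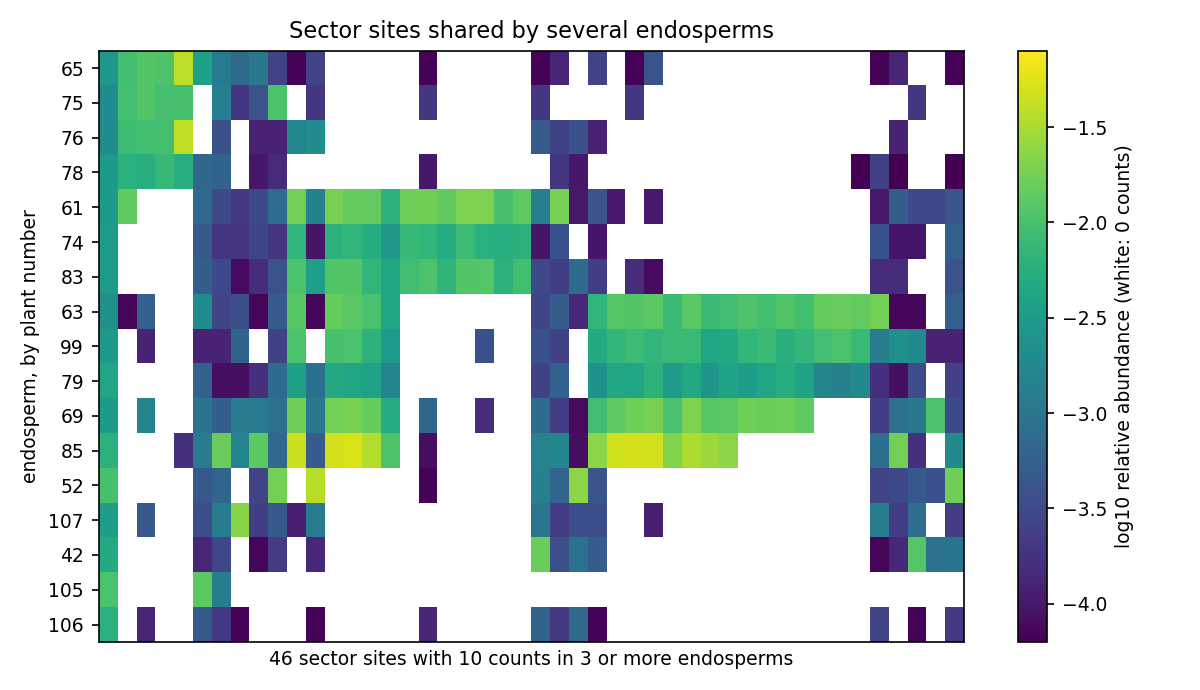
Each column is 1 of the 46 sector sites with at least 10 counts in 3 or more endosperms and each row is 1 of 17 endosperms. Colour gives log10 relative abundance, with white for 0 counts and values beyond the ends of the scale drawn in the end colours. The shared sites fall into blocks of the same endosperms, such as 61, 74 and 83 or 63, 99, 79, 69 and 85.

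The most abundant shared sites were held at 0.01 or more in several endosperms. The site chr10:69828163-69828171 reached 0.0527 in endosperm 85 and passed 0.01 in 6 of the 8 endosperms that had at least 10 counts. The site chr2:199566490-199566498 reached 0.0505 in endosperm 85 and passed 0.01 in 3 of 5. At chr1:185446772-185446780 endosperm 85 had 0.0501, and 5 of 8 endosperms passed. The sites chr4:149304850-149304858, at 0.0487, and chr10:135029426-135029434, at 0.0470, were also largest in endosperm 85 and passed in 3 of 5 endosperms each. No sector above a relative abundance of 0.08 was shared.

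Sites inherited by 1 plant alone were used to see whether DNA of one plant was read in another's endosperm. Over 272 ordered pairs of plants, the median of the mean relative abundance was 3.39e-05, and it was 0.001 or more in 6 pairs. The highest was 0.00940, for sites of plant 99 read in endosperm 63, where 4 of 12 sites were detected. Next came sites of plant 78 in endosperm 75 at 0.00453, with 8 of 24 detected, and sites of plant 79 in endosperm 69 at 0.00335, with 5 of 16 detected. The remaining pairs were 65 in 76, 75 in 78 and 69 in 79, at 0.00217, 0.00206 and 0.00165. All 6 pairs also shared sector sites, from 8 sites with at least 10 counts in both endosperms (65 and 76) to 24 (99 and 63). Sharing alone did not mark these pairs: 38 of the 272 shared at least 8 sector sites, and in 32 of the 38 the mean was below 0.001, as for sites of plant 99 in endosperm 79, with 21 sites shared and a mean of 5.7e-05. For leaf, root and the deeper pollen, the value of a pair was the highest mean among the libraries of the plant read. It had a median of 4.47e-05 and reached 0.001 in 5 pairs. The highest was 0.00761, for sites of plant 63 read in plant 85. The endosperm value came from 1 library, so these values are not a like-for-like comparison with it, and plants with several libraries could score higher. The rule does not separate sites that arose in an endosperm from sites shared for another reason. The origin of the shared sites was not tested, and results are given below with and without the shared sites.

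Most sectors were small, close to the threshold, and 4 reached between 0.25 and 0.5 of the level of an inherited insertion. The median relative abundance of the 493 sites was 0.0155, the quartiles were 0.0120 and 0.0229, and the highest was 0.439. In doubling classes, 339 sites (68.8%) lay from 0.01 to 0.02, 111 from 0.02 to 0.04, 32 from 0.04 to 0.08, 6 from 0.08 to 0.16, 2 from 0.16 to 0.32, and 3 above. Without the shared sites the 6 classes held 268, 92, 26, 6, 2 and 3 sites. The members next to the threshold were at 0.01006 in endosperm 52, 0.01003 in endosperm 85 and 0.01001 in endosperm 79. The nearest sites left out were at 0.00999 in endosperm 69 and, for 2 sites, 0.00999 in endosperm 83.

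Inherited insertions gave a scale within each endosperm. Inherited sites, defined as those with 0 counts in Mu-inactive leaf that reached 0.1 in the endosperm and also in leaf, root or pollen of the same plant, had a median relative abundance between 0.339 (endosperm 105) and 1.496 (endosperm 85). No sector reached 0.5 of its endosperm's inherited median. Between 0.25 and 0.5 of it lay 4 sectors, between 0.125 and 0.25 lay 5, between 0.0625 and 0.125 lay 12, and between 0.03125 and 0.0625 lay 81, of which 63 were read with 10 counts in 1 endosperm only. All 21 sites from 0.0625 upwards had at least 10 counts in 1 endosperm only, which does not make them private to 1 kernel. In endosperm 52, chr1:7879573-7879581 (ratio 0.0848) was also read in 28 libraries of other plants, with up to 18 counts. Others, such as chr2:55407252-55407260, had no count in another plant. The lowest class is incomplete in endosperm 105, where the smallest ratio that could pass was 0.0385.

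**Figure D2:**
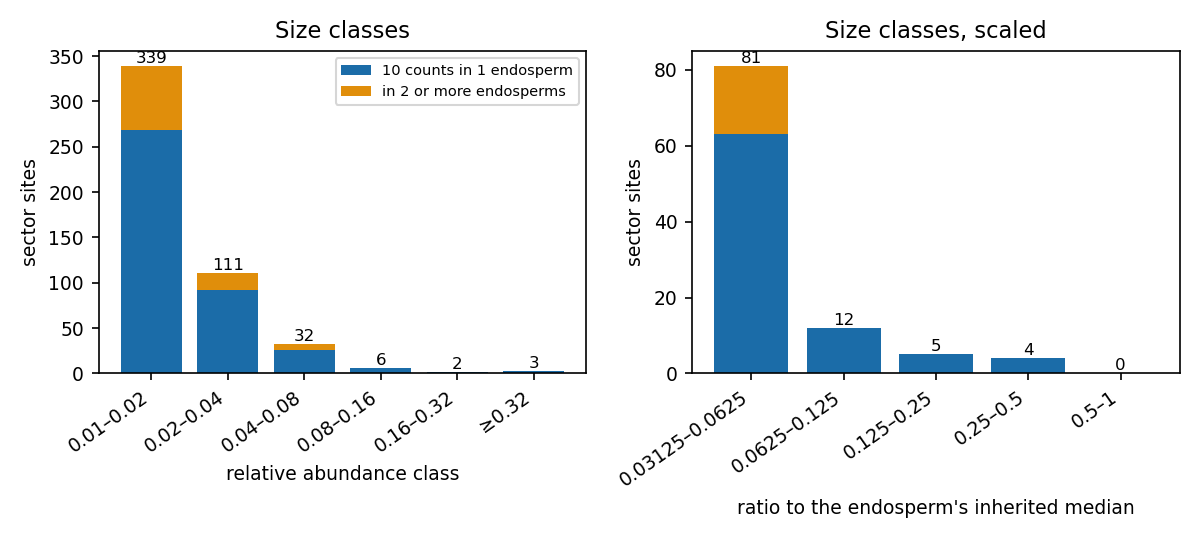
Bars give the number of sector sites in doubling classes of relative abundance (left) and of its ratio to the median of the inherited sites of the same endosperm (right, down to a ratio of 0.03125). Colours separate sites with at least 10 counts in 1 endosperm from those in 2 or more; 339 of 493 sites fall in the lowest abundance class, and shared sites occupy the low classes on both scales.

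The 4 sectors nearest to the inherited level were in 4 different kernels. In endosperm 69, chr2:55407252-55407260 had 5666 counts, 2521 from the left and 3145 from the right border, a relative abundance of 0.439 and 0.403 of the inherited median. No other Mu-active library had a count there, including root 69 and pollen 69, where 3 counts, the limit that a count of 0 allows, stand for 0.000141 and 0.00203. In endosperm 83, chr1:72569854-72569862 had 4801 counts, 2477 left and 2324 right, an abundance of 0.375 and 0.449 of the inherited median. It too had 0 counts in every other Mu-active library, with a limit of 0.000128 in leaf 83.

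In endosperm 74, a MuKiller-labelled one, chr8:128160260-128160268 had 3546 counts, 0.335 and 0.476 of the inherited median. Leaf, root and pollen of plant 74 had 0 counts, and 6 of the 25 leaf, root and pollen libraries of other plants had up to 5. In 8 other endosperms it had 1 to 3 counts. In endosperm 75, chr6:101631475-101631483 had 1385 counts, 0.274 and 0.417 of the inherited median, with 295 left and 1090 right border counts. Both leaf libraries, the root and the pollen of plant 75 had 0.

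The next 6 sectors were in endosperms 52, 85, 61 and 75. In endosperm 52, chr7:89724394-89724402 had 5097 counts (0.174), chr1:309901533-309901541 had 3078 (0.105) and chr5:58107973-58107981 had 2881 (0.0986). The second of these is 1 of 2 sector sites where the deposited combined count is not the sum of the borders (181 left, 1539 right), and it had 2 counts in pollen 52. In endosperm 85, chr9:131767527-131767535 had 1494 counts (0.124). In endosperm 61, chr7:9982980-9982988 had 973 (0.100005), and in endosperm 75, chr4:194841052-194841060 had 478 (0.0944). Except for the site with 2 counts, all of these had 0 counts in every library of the own plant. These 10 largest sectors made up 18.3% of the summed relative abundance of the 493.

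The remaining endosperms had no sector of that size. The largest was 0.0739 in endosperm 65 (chr6:107990338-107990346), 0.0737 in endosperm 79 (chr3:133980316-133980324) and 0.0471 in endosperm 63 (chr5:196514896-196514904). It was 0.0396 in endosperm 76 (chr7:115591078-115591086, a shared site), 0.0391 in endosperm 105 (chr3:18718492-18718500) and 0.0387 in endosperm 106 (chr6:42645677-42645685). In endosperms 107, 78, 42 and 99 it was 0.0364 (chr8:181809325-181809333), 0.0328 (chr2:149889225-149889233), 0.0310 (chr1:7128187-7128195) and 0.0301 (chr8:179322047-179322055). The largest sector of a kernel thus ran from 0.0301 to 0.439.

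**Figure D3:**
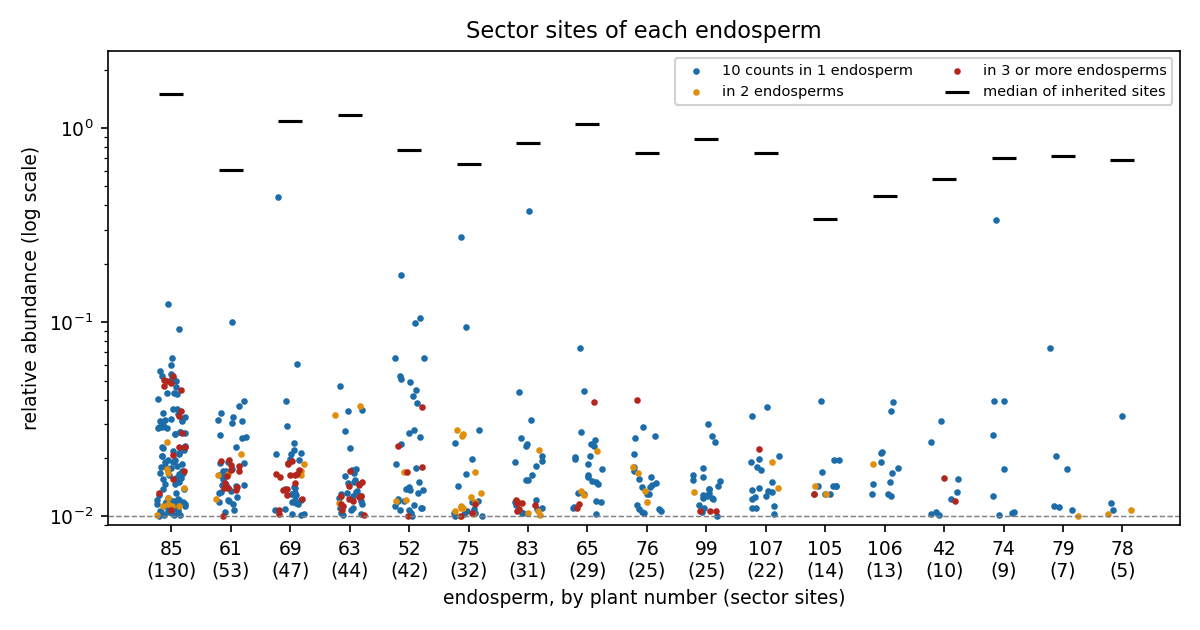
Points are sector sites in each of 17 endosperms, ordered by their number (in brackets), at their relative abundance on a log scale; a site past the limits in several endosperms is drawn in each. Colour gives the number of endosperms with at least 10 counts, bars mark the median of the inherited sites, and the dashed line is the 0.01 threshold. Endosperm 85 holds 130 sites, and the 4 sectors nearest the inherited level are in endosperms 69, 83, 75 and 74.

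The number of sectors differed widely between endosperms, from 5 in endosperm 78 to 130 in endosperm 85, with a median of 25 and a mean of 31.6 ± 29.3 (SD, n = 17). Endosperm 61 had 53, 69 had 47, 63 had 44 and 52 had 42. At the low end, endosperm 79 had 7, 74 had 9 and 42 had 10. The 2 MuKiller-labelled endosperms, with 53 and 9, stood at both ends and the 15 others ran from 5 to 130. Without endosperm 85 the mean was 25.5 ± 15.3 (SD, n = 16). Counting only sites with 10 counts in 1 endosperm, the range was 3 to 104.

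Endosperm 85 stood apart in number but less so on the inherited scale. It held 21 of the 43 sites at 0.04 or more, yet its largest was 0.124 and its inherited median of 1.496 was the highest of the 17. At a ratio of 0.03125 or more to the inherited median, endosperm 61 had 16 sectors, 85 and 52 had 15 each and 106 had 10, while 42, 63 and 107 had 2 each and 78, 79 and 99 had 1 each. All 14 sectors of endosperm 105 passed, because its smallest possible ratio, 0.0385, is above that limit, so it has no place in this order. The order of the other endosperms depended on the scale.

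No relation between the number of sectors and depth was detected. Over 17 endosperms, the log2 reference level and the number of sectors had a Pearson r of 0.13 (permutation p = 0.503, adjusted p = 0.503 over 2 relations). Spearman's rho was -0.01 (permutation p = 0.969). Leaving out the 2 endosperms farthest from the median gave an r of -0.06. The reference level is also the divisor in the rule, so the number of sectors is not independent of it. These values therefore do not show that the number is free of depth. Endosperms with more sectors also had a higher summed abundance at sites below 0.01. Over the 17 endosperms r was 0.66 and rho was 0.68, and dropping the 2 farthest endosperms gave an r of 0.60. It was 0.66 without endosperm 85 and 0.64 over unshared sectors. Both sides of this relation come from the same library and share its reference level as divisor, so part of it is built in. The rule used these abundances, so it is a description without a test.

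No difference was detected between the trace of endosperm sectors in the plant grown from the kernel and in other plants. These other plants are not unrelated, since all leaf and root plants and most pollen plants are labelled as the same family. Because the rule bounds own and other plants alike, the share of an endosperm's sector sites with at least 1 count in the own leaf was compared with the mean share of the same sites over leaves of the other plants. Own leaf gave 11.7% ± 10.9 and other plants' leaf 13.9% ± 3.38 (SD over 6 plants). The difference was -2.24 points ± 8.96 (SD, n = 6), with 2 plants higher, 3 lower and 1 equal (exact sign-flip test, two-sided, p = 0.562, adjusted p = 0.693 over 7 tests). With 6 plants the smallest p possible was 0.0312 before adjustment.

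Plants differed more than the groups did. Leaf 83 had counts at 25.8% of its 31 sectors, against 18.1% in other plants' leaves, and leaf 75 had 21.9% of 32, against 13.8%. Leaf 76 had 8.0% of 25, against 16.0%, leaf 79 had 14.3% of 7 as did other leaves, and leaves 74 and 78 had 0 of 9 and 0 of 5, against 13.3% and 8.0%. The shares in leaf 75 and leaf 83 lay above every other plant's leaf at the same sites, which had 6.25% to 18.8% and 12.9% to 22.6%. The other 4 leaves lay within the range of the others. Such shares depend on depth and were not adjusted for it. Leaves 75 and 83 had reference levels of 21330 and 23515.5, where leaves 74 and 76 had 9221 and 8618 and leaf 78 had 23714.

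Nor was a difference detected in root or pollen. Own root had counts at 5.04% ± 4.71 of sectors and other plants' root at 4.63% ± 2.21, a difference of 0.41 points ± 6.35 (SD, n = 6; exact sign-flip test p = 0.875, adjusted p = 0.875; higher in 3 of 6). Own pollen had 11.1% ± 10.0 and other plants' pollen 12.5% ± 5.87, a difference of -1.38 points ± 6.24 (SD, n = 9; exact sign-flip test p = 0.508, adjusted p = 0.693; higher in 4 of 9). Leaving out any 1 plant, the doubtfully labelled pollen 69 and 99 among them, gave -2.65 to -0.34 points in pollen. Over unshared sectors the differences were -4.93 points in leaf, 1.16 in root and -2.40 in pollen (exact sign-flip tests, adjusted p = 0.438, 0.656 and 0.428). Unshared means at least 10 counts in 1 endosperm only, so such sites can have fewer counts in other endosperms. Over sectors read in 1 endosperm only, the differences were 0.56 points in leaf, 0 in root and 0.33 in pollen, and none passed.

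**Figure D4:**
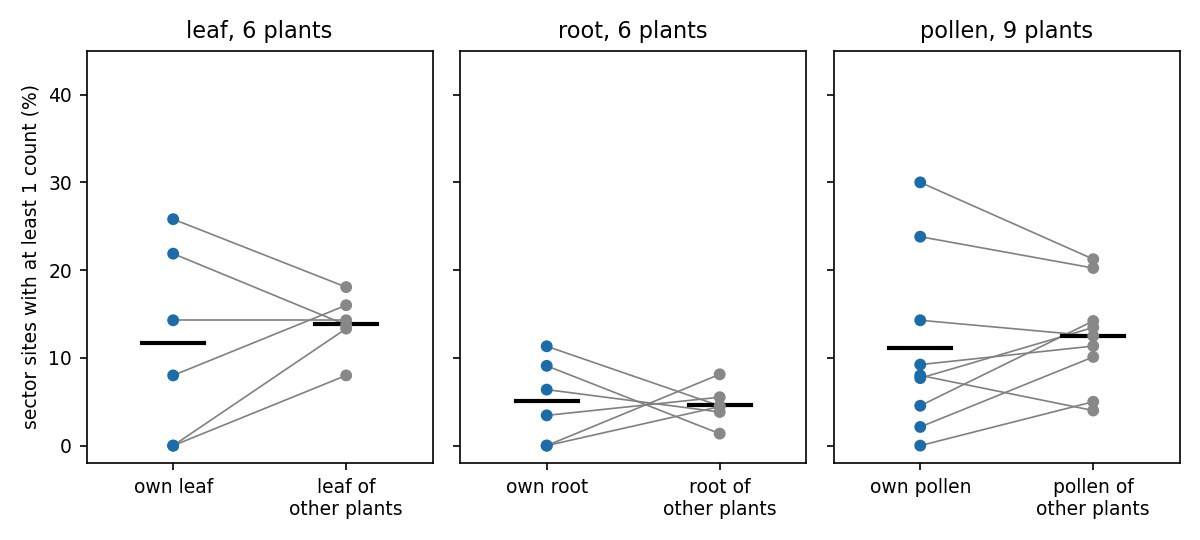
Each line joins, for 1 plant, the percentage of its endosperm's sector sites with at least 1 count in its own leaf, root or pollen (left, blue) and the mean over the same tissue of other plants (right, grey); thick bars are means over plants. Own and other means are 11.7% and 13.9% in leaf, 5.04% and 4.63% in root, and 11.1% and 12.5% in pollen.

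Pooled over plants, 18 of 109 sector sites had a count in the own leaf (16.5%), where 23.5% of all endosperm sites with 10 counts under the same bounds did. In root it was 14 of 214 (6.54%, against 9.4%), and in pollen 32 of 328 (9.76%, against 12.7%). In any library of the own plant, 58 of 493 sites had a count, 11.8% with a 95% Wilson interval of 9.21% to 14.9%. That interval treats the sites as independent, although they are nested in 17 endosperms and some are shared. It leaves out differences between plants and is too narrow. The share of sites with a count was 15.3% over all such endosperm sites. Plants weigh differently in these shares: endosperm 85 gave 130 of the sectors, and endosperm 52 gave 12647 of the rarer sites. The contrast was not tested. By size, a count was read in the own plant for 37 of 339 below 0.02, 16 of 111 from 0.02 to 0.04, 5 of 43 at 0.04 or more, and 1 of 8 at 0.1 or more. Libraries of other plants, endosperms included, had a count at 327 of the 493 sites (66.3%), where 64.2% of all endosperm sites with 10 counts under the same bounds did.

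Of the 58 sites, 8 had at least 10 counts in an own library, and 2 of these had 0 counts in every leaf, root and pollen library of other plants. The matching shares over all endosperm sites under the same bounds were not computed, so these counts are a description only. The first of the 2, chr1:187296190-187296198, had 52 counts in endosperm 75, a relative abundance of 0.0103. It had 83 counts in leaf 75 (42 left, 41 right) and 92 in the repeat library of that leaf (55 left, 37 right), relative abundances of 0.00389 and 0.00459. Root 75 and pollen 75 had 0 counts, with limits of 0.000319 and 0.00665, and no other plant's library had a count. The repeat library, whose title names plant 76, thus carried this site as leaf 75 did.

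The second, chr6:111243361-111243369, had 118 counts in endosperm 61 (0.0121), 1 of them left, and 202 in root 61, all from the right border (0.00774). In endosperm 65 it had 1 count.

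The other sites with counts in the own plant were also read elsewhere. At chr7:162797763-162797771 endosperm 61 had 140 counts (0.0144) and root 61 had 46, all left, and 13 of 28 leaf, root and pollen libraries of other plants had up to 12. At chr2:127613793-127613801 endosperm 52 had 495 counts (0.0169) and pollen 52 had 35 (0.00906), and 18 of 28 such libraries had up to 17. The largest sector of endosperm 99, chr8:179322047-179322055, had 238 counts there and 26 in the library labelled pollen 99, and 4 of 28 such libraries had 1.

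Leaf sectors, found by the mirrored rule, gave the reverse question. They numbered 435. Endosperm sectors had a count in the own leaf in 11.7% of sites and leaf sectors in the own endosperm in 13.7% ± 6.39, a difference of -2.06 points ± 10.0 (SD, n = 6; exact sign-flip test p = 0.594, adjusted p = 0.693; higher in 3 of 6). The spread between plants was larger than the difference.

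Sectors were read from both Mu borders more often than inherited sites were, a difference that shrank when inherited sites recurring between plants were left out. The rule used the summed count and not its split, but a site read at 1 border only has a lower sum and passes 0.01 less easily. Most sectors lay near that limit (339 of 493 below 0.02), while inherited medians were 0.339 to 1.496. The test below is therefore not independent of the rule, and no conclusion about the sectors is drawn from it. Both borders had counts at 98.3% ± 2.41 of sector sites and 86.7% ± 6.83 of inherited sites (SD over 17 endosperms). The difference of 11.7 points ± 6.61 was positive in 17 of 17 endosperms (exact sign-flip test, two-sided, p = 1.53e-05, the smallest that 17 endosperms allow, adjusted p = 0.000107). It was 12.4 points with unshared sectors only. The 715 pairs of inherited site and endosperm lie at 423 sites, so endosperms share them. Against the 365 sites inherited by 1 plant alone, read at both borders in 94.1% ± 6.57, the difference was 4.07 points ± 5.91 (SD, n = 16; higher in 9, lower in 2 and equal in 5; exact sign-flip test p = 0.00781, adjusted p = 0.0547) and no longer passed. A single border was read in 28 of these 365, and in 65 of the 350 pairs inherited by several plants.

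The 2 borders were also closer in abundance at sector sites, given here without a test. The log2 ratio of left to right border relative abundance had a median of -0.09 and an SD of 0.91 over 480 sector sites, and 84.8% of them lay within 1 log2 unit. Over 622 inherited site and endosperm pairs the median was -0.20 and the SD 2.93, and 73.8% lay within 1 log2 unit. Sector sites mostly had fewer counts than inherited sites, so the most uneven ratios could be read less often there. Inherited sites recurring between plants enter more than once, and the ratio was not compared without them. A single border was read at 11 sector sites, against 93 of the 715 inherited pairs. The median left border share was 49.9% ± 3.36 in sectors and 47.9% ± 2.23 in inherited sites, a difference of 1.94 points ± 4.33 (SD, n = 17; exact sign-flip test p = 0.0841, adjusted p = 0.294; higher in 12 of 17). That second difference did not pass.

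**Figure D5:**
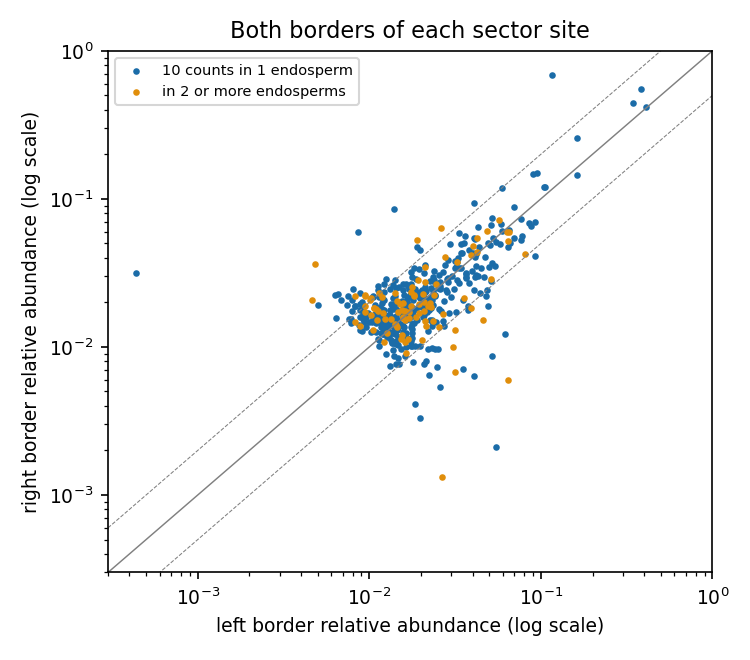
Each point is a sector site, at the relative abundance of its left border (horizontal) and right border (vertical) in the endosperm where it was largest, both on log scales; the solid line marks equality and the dashed lines a difference of 1 log2 unit. Of 480 sites read at both borders, those whose combined count is not the sum left out, 84.8% lie between the dashed lines.

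By chromosome, the shares of sectors and of other endosperm insertions were close, as a description without a test. Chromosome 1 held 16.4% of sector sites and 16.8% of all endosperm sites with 10 counts under the same bounds, chromosome 2 held 9.94% and 11.8%, and chromosome 10 held 7.51% and 6.53%. None lay outside the 10 chromosomes. In 491 of the 493 the site's coordinates spanned 9 bp, the length of the duplication that Mu insertion makes. The other 2 spanned 8 bp and 1 bp in endosperm 85. At chr10:1857690-1857698 the span was 9 bp although endosperm 85 had 0 left and 372 right border counts and no other undiluted library had a count. The deposited span is therefore not taken as a measurement of the duplication, and its share over all sites was not computed. Nearly every insertion had a neighbour: another plant's site lay within 1 kb of 98.8% ± 3.56 of sectors and of 98.1% ± 0.52 of rarer sites in the same endosperm (difference 0.70 points ± 3.48, SD, n = 16; exact sign-flip test p = 0.536, adjusted p = 0.693; higher in 13 of 16). Endosperm 79, at -11.8 points with 7 sectors, decided this result. Without it the difference was 1.53 points (exact sign-flip test, adjusted p = 0.0015). Shares of rarer sites were near the ceiling, and many endosperms with few sectors had 100%, so small positive differences are partly built in. The test cannot separate this from a real difference, and none is drawn from it.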

How the data were processed

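MuSeq2 amplifies and sequences the junctions of Mu ends with genomic DNA. Per the labels' protocols, DNA was sheared and ligated to an adapter before PCR. Leaf and root DNA came from a kit and endosperm and pollen DNA from CTAB extraction, so the DNA of sectors and of leaf or root was prepared in different ways. The authors deposited whole-number counts per site for both borders together and for each border. Bowtie2 is named in the submitters' processing notes. Its version, the build, the insertion caller and any removal of duplicates were not given in the sources used here. Combined counts differ from the sum of the borders at 163 sites, including 11 of the 28 reference sites and 2 sectors. The highest position on chromosome 1, 310879913, exceeds 308332590, where the B73 annotation at hand has its final gene, so no gene context or sequence was assigned.

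Members, lists and tests were chosen with earlier results of these data known. Sites named are the 10 largest sectors, the largest of each endosperm, the 5 with most counts in the own plant, those next to the threshold and up to 5 past it in several endosperms; endosperm pairs and sets, the 2 sectors of other span and the sites with 10 counts in the own plant were chosen after their values were seen. Tests were exact two-sided sign-flip tests over plants, with p adjusted by Benjamini-Hochberg over 7 tests; relations used 100000 permutations. Plants are separate kernels, and endosperm and plant are paired through the kernel. The main tests use that pairing. The first technical library of a plant was used. Rule and tests were tested on simulated data. Count intervals and limits (3 counts) cover counting error only, since PCR reads are not independent molecules. Alternatives changed 1 choice at a time. Python 3.11.15, numpy 2.4.6, pandas 2.3.3, scipy 1.17.1 and matplotlib 3.10.9 were used.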

Additional observations from a re-analysis of the deposited data

Results flagged for a closer look

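Libraries that the comparisons did not use also held counts at sector sites. In 6 shallow pollen libraries of 5 plants, 1 of 91 pairs of sector site and library had a count, a single count for 1 of 9 sectors of endosperm 74 in pollen 74. In the leaf of plant 83 diluted with Mu-inactive leaf to 1 part in 3, 9 of 31 sectors of endosperm 83 had a count, 3 of 31 did at 1 part in 10 and 2 of 31 at 1 part in 30. In the leaf of plant 79 diluted to 1 part in 3, 2 of 7 sectors of endosperm 79 had a count. The diluted leaf of the other plant, at 1 part in 3, had counts at 4 of the 31 sectors of endosperm 83 and 0 of the 7 of endosperm 79. No site had more than 3 counts in any of these, and the differences were not tested.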

How the results depend on the processing

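The comparisons of own with other plants stayed on the same side of the threshold under all alternatives run, with adjusted p of 0.438 or more in leaf, 0.594 in root and 0.428 in pollen; the difference in points changed sign between alternatives, from -4.93 to 4.39 in leaf, -1.06 to 2.47 in root and -2.65 to 0.82 in pollen. Leaving out each plant in turn gave -4.32 to -0.03 points in leaf, -1.06 to 2.11 in root, -2.65 to -0.34 in pollen and -4.26 to 0.23 for endosperm sectors against leaf sectors. The both-border difference ran from 10.8 to 12.2 and the left border share from 1.38 to 2.33. Without the replicate block, that is without pairing by plant, adjusted permutation p was 0.758 in leaf, 0.851 in root, 0.847 in pollen, 0.798 against leaf sectors, 0.00014 for both borders and 0.196 for the left border share (differences of -2.24, 0.41, -1.38, -2.06, 11.7 and 1.94 points), so it changed no call. The both-border difference was 4.07 points against sites inherited by 1 plant alone (adjusted p = 0.0547), where fewer and other inherited sites were compared; its cause was not tested further. The neighbour result passed at 10000 bp (0.49 points, exact sign-flip test, adjusted p = 0.000107), where shares are near their ceiling, as they are at 1 kb. At 1 kb the difference ran from 0.55 to 1.53 points leaving out 1 plant each. The number of sectors was 769 from right border counts and 154 at a threshold of 0.02, against 493; the number at 0.04 or more, 43, was 72 and 73 from the left and right borders, 24 with the library total as scale and 22 without endosperm 85. Every plant had a library bounded by the rule, so leaving out endosperms without one removed none, and pollen had no deep second library, so these alternatives gave no value. Alternatives chosen after seeing the data were sites with 10 counts in 1 endosperm, reference sites with summed counts, no endosperm 85, detection from 0.001 and inherited sites of 1 plant. Depth limits what a count of 0 can show to 8.45e-05 to 0.000348 in leaf and root and to 0.000427 to 0.00203 in the deeper pollen.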
